A study of Drosophila melanogaster with 56 samples.

Results

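The cytochrome P450 family of Drosophila melanogaster was followed through 48 h of fasting in antenna, palp, body and head. Members were all probe sets of a single-colour expression array whose annotated symbol is Cyp followed by a family number, a subfamily letter and a gene number. The rule took 84 of 18952 probe sets. With the probe set of highest mean kept for each gene, they gave 82 of 17104 features, of which 81 were genes with a probe set of their own and 1 was a probe set shared by Cyp12d1-d and Cyp12d1-p. Cyp6 (23 members) and Cyp4 (22) were the largest families, followed by Cyp12 (7), Cyp313 (6), Cyp9 (5) and Cyp28 (4). Cyp309 had 2, and each of 13 further family numbers had 1.

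P450s are haem-containing monooxygenases that insert oxygen into fatty acids, hormones, odorants, plant toxins and insecticides. Insect families are sorted into a CYP2, a CYP3, a CYP4 and a mitochondrial clan. Detoxification is known mainly from the CYP3 clan (Cyp6, Cyp9, Cyp28) and from Cyp12. Enzymes of the CYP2 and mitochondrial clans make and break down the moulting hormone ecdysone, and CYP4 enzymes act on fatty acids and hydrocarbons. Fat body, gut and Malpighian tubule are the main sites of fly P450 expression, and antennal P450s are regarded as candidate odorant-degrading enzymes.

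Per the labels, 6 pools of flies were sampled at 0 h (baseline) and after 24 and 48 h of fasting. The samples of a pool were antenna, palp together with proboscis (palp hereafter), body without the head, and head without its chemosensory organs, and not every pool gave every part at every time. Antenna had 4 arrays at 0 h, 5 at 24 h and 5 at 48 h, and the remaining parts had 5 at 0 h, 5 at 24 h and 4 at 48 h, for a total of 56. The sources used here do not give strain, sex, age or whether pools were separate cultures, so p-values measure the spread between these samples. Without fed flies of the later times, food deprivation and elapsed time or age cannot be told apart. In bulk samples, fewer cells of a type and less RNA per cell cannot be told apart either.

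Values are log2 signals from 2.08 to 15.4, with a median of 4.04 on every array, and a signal of 4 was taken as the lower limit of measurement. Antennal markers averaged 11.5 to 11.9 on antenna arrays and 2.12 to 4.52 on body and head arrays. The mean of gut markers stood apart within its group on antenna 0 h replicate 2 (10.7, group median 4.12), antenna 24 h replicate 1 (8.59, median 4.10) and palp 0 h replicate 2 (10.7, median 5.31). In head it ranged from 3.53 to 11.7 at 0 h, with replicate 2 highest, from 8.66 to 10.7 at 24 h and from 5.82 to 9.82 at 48 h. Antenna 24 h replicate 1 also held accessory gland markers at 11.3 (median 2.16) and body markers at 8.80 (median 4.74), and without it 17 members were called in antenna at 24 h against 0 h, against 16 with it. Without these 3 arrays, head 0 h replicate 2 and palp 24 h replicate 2, which had a wide residual spread in an earlier analysis of these data, 26, 36, 34 and 34 members were called at 48 h against 0 h in antenna, palp, body and head.

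At 0 h, 58 members reached 4 on every antenna array, 66 on every palp array, 62 on every body array and 61 on every head array. At 48 h the numbers were 56, 67, 55 and 61. Cyp6a16, Cyp12d1-d by its own probe set, Cyp303a1, Cyp304a1, Cyp313a2, Cyp313a3, Cyp313a5 and Cyp316a1 were tested in no body part, because fewer than 4 arrays of any part reached 4. The other 74 features were tested in at least 1 part and 55 in all 4.

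Before fasting, most of the P450s tested differed between head and each other body part. Differences from limma are given as log2 values with their standard error, "rose", "fell", "higher" and "lower" are used for an adjusted p under 0.05, and n was 4 for antenna and 5 for each other part. Of 74 members tested, 31 were higher and 22 lower in antenna than in head (71.6%, against 49% of all features). In palp 46 were higher and 7 lower than in head (71.6%, against 53.9%). In body 19 were higher and 37 lower (75.7%), fewer than the 85.9% of all features, and the median difference over all features was itself -0.55. Higher and lower shares over all features were 26.4% and 22.5% in antenna, 30.7% and 23.2% in palp, and 31.4% and 54.5% in body.

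The largest fitted differences of antenna over head were those of Cyp308a1, Cyp6t3, Cyp313a4 and Cyp6a8. Cyp308a1 averaged 11.55 ± 0.12 in antenna and 2.08 on every head array (SD, n = 4 and 5), a difference of at least 187-fold. A fold written as "at least" sets a member against the lower limit of measurement where the dimmer group is below it on every array. Such a member entered its fit only through arrays outside the dimmer group. Cyp6t3, an enzyme of ecdysone synthesis in larvae, was at least 333-fold above head, and Cyp313a4 at least 123-fold. Cyp6a8, a drug-inducible enzyme of insecticide-resistant strains, averaged 13.32 ± 0.13 in antenna and 8.44 ± 0.41 in head, a difference of 4.87 ± 0.23. All 4 were also higher in palp than in head, Cyp308a1 at least 15.3-fold, Cyp6t3 at least 16.1-fold, Cyp313a4 at least 18.2-fold and Cyp6a8 by 1.71 ± 0.22.

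Other members stood furthest above head in palp, in body or in both. In palp Cyp4aa1 was at least 29.4-fold and Cyp312a1 at least 27.4-fold above head. In body Cyp312a1 was at least 645-fold and Cyp4aa1 at least 10.7-fold above head. Cyp4g1, the oenocyte enzyme that makes cuticular hydrocarbons, stood 9.73 ± 0.75 above head in body, and Cyp6a18 and Cyp310a1 at least 25.7-fold and 21.0-fold. Cyp18a1, which inactivates 20-hydroxyecdysone, was lower than in head in antenna (-4.73, with 1 of 4 antenna arrays reaching 4), palp (-1.26) and body (-3.63). Cyp6g2 was lower than in head in the same parts, at least 7.16-fold in antenna and in body, where no array reached 4, and in palp, where 2 of 5 arrays did.

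The question of the fasting comparison was how transcripts change as food is withheld. At 48 h against 0 h, 12 members rose and 14 fell of 61 tested in antenna (42.6%, against 17.6% of all features), and 16 rose and 19 fell of 69 in palp (50.7%, against 33.1%). In body 10 rose and 24 fell of 65 (52.3%), close to the 50.8% of all features. In head 10 rose and 22 fell of 65 (49.2%, against 25.5%). Single directions took 8.61% higher and 8.97% lower of all features in antenna, 17.4% and 15.7% in palp, 29.8% and 21% in body, and 13.2% and 12.3% in head. The members' median change was -0.08, -0.14, -0.34 and -0.22 in antenna, palp, body and head, against 0.04, 0.02, 0.10 and 0.08 over all features.

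**Figure D1:**
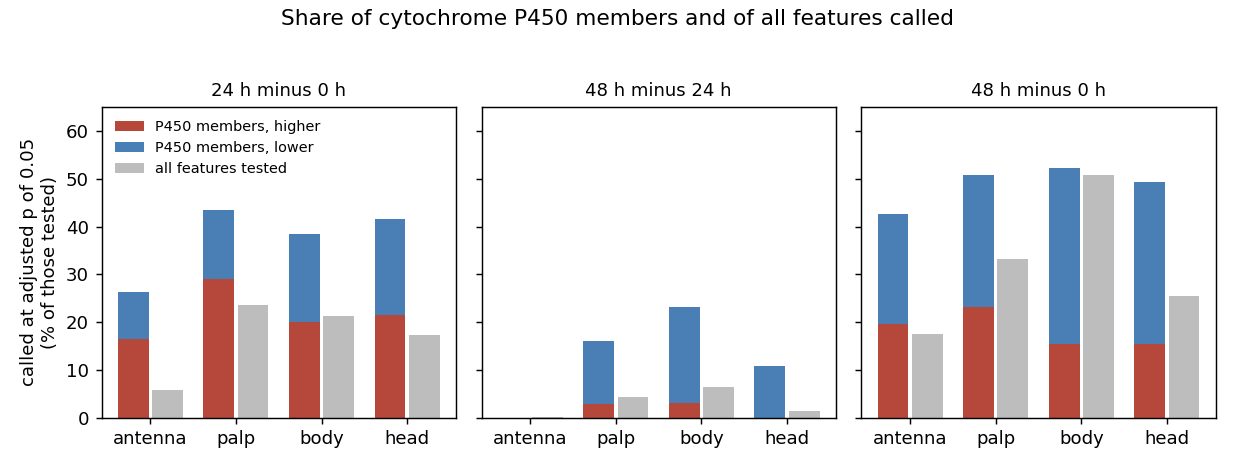
Share of tested P450 members (coloured, red higher and blue lower) and of all tested features (grey) called at an adjusted p of 0.05, in percent, for each body part and each pair of times. The coloured bars stand above the grey ones at every pair of times in palp and head, and stand close to them in body at 48 h against 0 h (52.3% and 50.8%).

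Cyp6 and Cyp4 members went in both directions. Of Cyp6 members, 6 rose and 1 fell of 18 in antenna, 6 rose and 4 fell of 20 in palp, 5 rose and 5 fell of 18 in body, and 4 rose and 5 fell of 21 in head. Of Cyp4 members, 3 rose and 3 fell of 17 in antenna, 3 and 7 of 20 in palp, 2 and 10 of 21 in body, and 4 and 6 of 19 in head, with medians of -0.06, -0.02, -1.16 and -0.15. No Cyp9 member rose in any part by limma, while 3, 3, 1 and 4 of 5 fell in antenna, palp, body and head. Every Cyp9 difference was at or below 0, so 0 rose at an unadjusted p under 0.05 as well, and the 4 that fell in head were Cyp9b1, Cyp9b2, Cyp9c1 and Cyp9h1. Over all features 8.61% rose and 8.97% fell in antenna, and 17.4% and 15.7% in palp. In body the shares were 29.8% and 21%, and in head 13.2% and 12.3%. Several family counts were near these shares, among them the Cyp6 rises and the Cyp9 fall in body. Cyp9 has too few members to set 0 rises against these shares.

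Across the body parts, 51 of the 74 tested members changed in at least 1 part at 48 h and 23 in none. Cyp4p2, Cyp6a2, Cyp6a8 and Cyp18a1 rose in all 4 parts. Cyp4ac1, Cyp4ac2, Cyp4d21, Cyp6t1, Cyp9b2, Cyp12b2, Cyp28c1 and Cyp305a1 fell in all 4. A further 5 rose in 3 parts (Cyp4ac3, Cyp4p1, Cyp6a9, Cyp6t3 and Cyp28a5) and 8 fell in 3 (Cyp4d8, Cyp4d20, Cyp4e1, Cyp6a21, Cyp6d4, Cyp9c1, Cyp311a1 and Cyp313a1). With signals below 4 raised to 4, calls ended for Cyp4p2 in body (1.15) and head (0.90), Cyp18a1 in antenna (0.48) and head (0.40), Cyp311a1 (-0.91) and Cyp6a17 (0.58) in palp, Cyp301a1 in head (-0.51), and Cyp6a14 (0.53), Cyp309a1 (-1.39) and Cyp309a2 (-0.77) in antenna. The parts came from the same pools of flies, on separate arrays. Members called in 2 parts had the same direction for 25 of 25 in palp and head, 21 of 21 in body and head, 16 of 16 in antenna and body, 22 of 23 in palp and body, 20 of 21 in antenna and head, and 18 of 20 in antenna and palp. Counts across parts are given for P450 members only, without the same counts over all features. Whether shared calls or directions are more frequent among P450s than among other features was not tested.

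**Figure D2:**
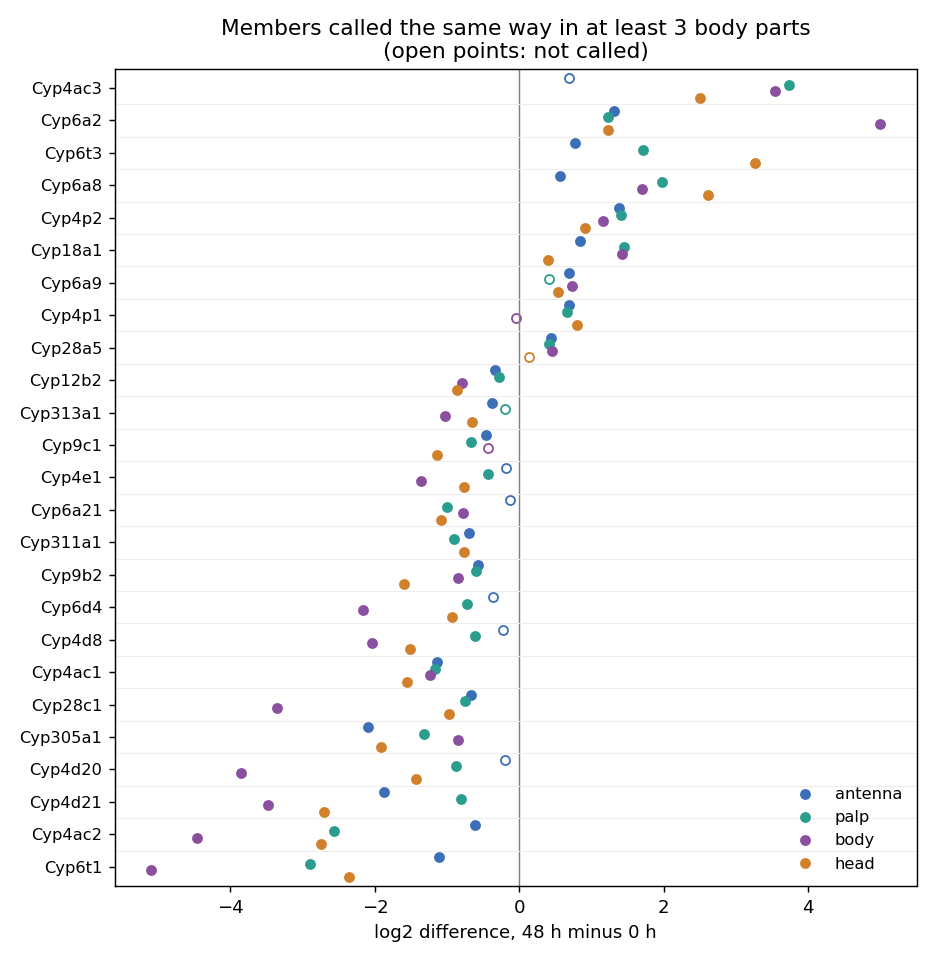
Log2 difference of 48 h minus 0 h for the 25 members called the same way in at least 3 body parts, 1 row per member, ordered by their mean, and 1 colour per part (filled points called, open points not called), with signals below 4 as deposited. Of the body points, those of Cyp6a2 and Cyp4ac3 lie furthest to the right and those of Cyp6t1 and Cyp4ac2 furthest to the left. The palp point of Cyp4ac3 lies further right than its body point.

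Cyp4ac1, Cyp4ac2 and Cyp4ac3 lie next to each other on chromosome arm 2L in the Release 6 plus ISO1 MT assembly, and they moved in different directions under fasting. Cyp4ac2 measured 6.22, 6.82, 6.99 and 7.31 at 48 h in palp, against 10.07, 9.28, 9.47, 9.35 and 8.86 at 0 h. In body it measured 3.67, 4.02, 6.51 and 4.87 at 48 h, against 9.31, 9.36, 9.17, 9.46 and 8.89 at 0 h, and in head 7.03, 7.11, 7.22 and 6.84, against 10.35, 9.92, 9.95, 9.71 and 9.05. In these 3 parts every 48 h array lay below every 0 h array. The falls were -2.57 ± 0.41 in palp (adjusted p = 0.000348), -4.47 ± 0.91 in body (0.00189) and -2.75 ± 0.24 in head (5.56e-06), and -0.61 ± 0.15 in antenna. Cyp4ac1 fell by similar amounts everywhere, at -1.13 ± 0.18 in antenna, -1.17 ± 0.15 in palp, -1.23 ± 0.16 in body and -1.56 ± 0.15 in head.

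Their neighbour Cyp4ac3 went the other way. It measured 11.88, 11.27, 10.33 and 11.09 at 48 h in palp, against 7.15, 7.92, 6.90, 7.35 and 7.72 at 0 h. In body it measured 11.13, 10.33, 11.47 and 10.81 at 48 h, against 7.17, 7.88, 6.18, 7.72 and 8.02 at 0 h, and in head 12.54, 11.47, 11.89 and 11.82, against 9.29, 9.84, 9.05, 9.19 and 9.75. The lowest 48 h array was above the highest 0 h array in each of these parts. Cyp4ac3 rose by 3.73 ± 0.31 in palp (adjusted p = 2.59e-06), 3.54 ± 0.34 in body (1e-05) and 2.51 ± 0.24 in head (1.05e-05). In antenna its difference was 0.69 ± 0.28 and did not pass (adjusted p = 0.0998), and the antennal change was smaller than that in head by the test of the difference (-1.81 ± 0.44, adjusted p = 0.0065).

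**Figure D3:**
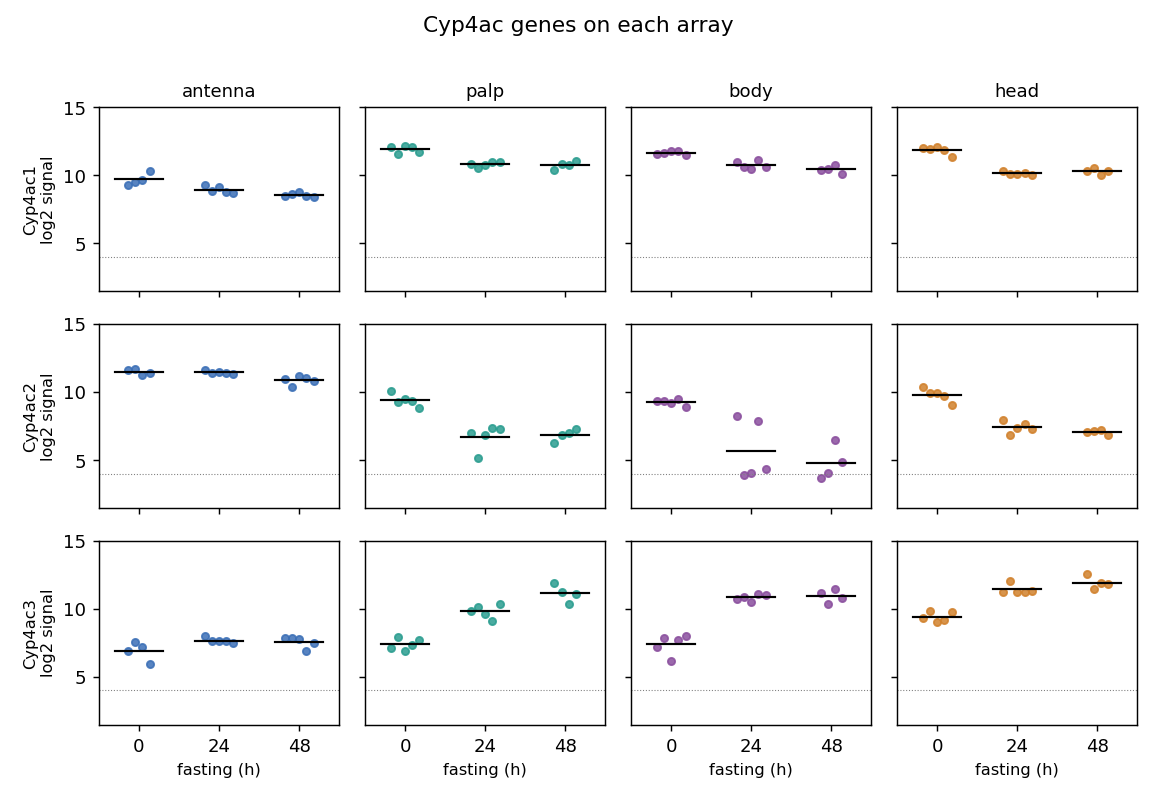
Log2 signal of Cyp4ac1, Cyp4ac2 and Cyp4ac3 (rows) on each array at 0, 24 and 48 h of fasting in antenna, palp, body and head (columns). Points are arrays, black bars group means and the dotted line a signal of 4. In palp, body and head Cyp4ac1 and Cyp4ac2 step down and Cyp4ac3 steps up, most of it by 24 h.

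Most of this change was present at 24 h. At 24 h against 0 h, Cyp4ac3 had risen by 2.40 ± 0.30 in palp, 3.44 ± 0.32 in body and 1.99 ± 0.23 in head, and at 48 h against 24 h it rose further in palp (1.33 ± 0.31), a call lost with signals below 4 raised to 4 (adjusted p = 0.0901). In body, Cyp4ac2 measured 8.23, 3.90, 4.08, 7.85 and 4.38 on the 5 arrays of 24 h. Of these, 2 lay within 2 log2 units of the 0 h arrays and 3 lay near the 48 h arrays, so that the groups of 24 h and 48 h overlapped.

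The Cyp6a subfamily holds many of the P450s known to respond to drugs and insecticides. Cyp6a2, which metabolises DDT, measured 8.74, 8.90, 9.72 and 9.27 at 48 h in body, against 4.87, 3.97, 3.08, 3.69 and 5.19 at 0 h. The rise in body was 5.00 ± 0.38 (adjusted p = 2.73e-06), with no overlap between the times. In antenna Cyp6a2 measured 12.29, 12.69, 12.42, 12.37 and 12.28 at 48 h, against 10.82, 11.10, 11.34 and 11.14 at 0 h, a rise of 1.31 ± 0.13. It rose by 1.22 ± 0.16 in palp and 1.23 ± 0.20 in head. Its unfasted level was lowest in body and highest in antenna, and its change in body exceeded that in head by 3.77 ± 0.36 (adjusted p = 1.43e-11). That standard error pools the spread of all 56 arrays and does not measure the spread of body and head alone. In body 24 h arrays measured 6.76, 7.75, 7.55, 7.57 and 7.49, between the 0 h and 48 h arrays without overlap.

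Cyp6a8 lies with Cyp6a17, Cyp6a19, Cyp6a20, Cyp6a21, Cyp6a22, Cyp6a23, Cyp6a9 and Cyp317a1 in a run of 9 members on chromosome arm 2R. Cyp6a8 measured 11.21, 10.78, 11.08 and 11.19 at 48 h in head, against 8.78, 8.29, 7.90, 8.92 and 8.34 at 0 h, and the times did not overlap. It rose by 0.57 ± 0.08 in antenna, 1.98 ± 0.20 in palp, 1.71 ± 0.19 in body and 2.62 ± 0.24 in head. The gene beside it, Cyp6a21, measured 9.00, 9.02, 9.58 and 9.21 at 48 h in head, against 10.29, 10.33, 10.50, 10.10 and 10.16 at 0 h. Cyp6a21 fell, at -1.01 ± 0.12 in palp, -0.78 ± 0.24 in body and -1.08 ± 0.15 in head, and differed by -0.13 ± 0.09 in antenna (adjusted p = 0.387).

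The rest of the run moved less. Cyp6a9 rose in antenna, body and head, at 0.70, 0.72 and 0.53. Its call in antenna was lost with the pool as a block (0.68). Cyp6a17, known for its role in temperature preference, passed in palp (0.58 ± 0.19), a call lost without any 1 of 5 arrays (0.43 to 0.61), and measured 0.47, 0.52 and 0.57 in antenna, body and head. Cyp6a19 rose in body (0.64), and Cyp6a22 and Cyp317a1 passed in no part at 48 h against 0 h. Cyp6a20, known for its role in male aggression, and Cyp6a23 passed in no part either, with differences between -0.63 and -0.03 for Cyp6a20 and between -0.69 and -0.20 for Cyp6a23. With the pool as a block both fell in body (-0.37 and -0.38) and head (-0.92 and -1.01).

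Cyp6t1 and Cyp6t3 share a subfamily and moved in opposite directions. Cyp6t1 measured 2.93, 3.22, 3.22 and 2.67 at 48 h in body, against 8.12, 8.13, 7.90, 8.56 and 7.80 at 0 h. In palp it measured 5.05, 6.45, 5.76 and 6.16 at 48 h, against 9.22, 8.30, 8.73, 8.86 and 8.63, and in head 6.94, 6.74, 6.47 and 7.29, against 9.59, 9.06, 9.28, 9.09 and 9.08. Every body array at 48 h was below the lower limit of measurement, so the fall there was at least 17.2-fold. The limma fit with signals below 4 as deposited gave an adjusted p of 9.06e-06, and Cyp6t1 entered it only through body arrays of earlier times. The falls were -1.12 ± 0.24 in antenna, -2.90 ± 0.41 in palp and -2.36 ± 0.21 in head.

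Cyp6t3 measured 6.32, 5.83, 6.96 and 6.52 at 48 h in head, against 3.01, 2.93, 3.16, 3.19 and 3.41 at 0 h. All 48 h head arrays stood above 4 and all 0 h head arrays below it, a rise of at least 5.31-fold. The limma fit with signals below 4 as deposited gave an adjusted p of 3.25e-06. Cyp6t3 entered that fit only through fasted head arrays, so the filter favoured a rise. Cyp6t3 rose by 1.71 ± 0.17 in palp and 0.77 ± 0.10 in antenna, while in body it stayed between 2.10 and 2.15 on all 14 arrays. Cyp313a4 went with it in head, at 6.17, 5.21, 6.10 and 5.56 at 48 h, against 2.31, 2.71, 2.34, 2.08 and 2.61 at 0 h, or at least 3.39-fold. It too entered the head fit only through fasted arrays. Cyp313a4 rose by 1.07 ± 0.16 in palp and differed by 0.24 ± 0.14 in antenna (adjusted p = 0.245).

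Cyp6t3, Cyp313a4 and Cyp6a8 rose in head and are 3 of the 4 members with the largest fitted difference of unfasted antenna over head. The change in antenna was below that in head for Cyp6a8 (-2.05 ± 0.27). For Cyp6t3 and Cyp313a4 the fitted differences were -2.50 and -3.11, but all their 0 h head arrays lay below 4. With signals below 4 raised to 4, an alternative chosen after seeing the data, the difference was -1.64 for Cyp6t3 (adjusted p = 8.4e-06) and -1.52 for Cyp313a4, which no longer passed (adjusted p = 0.129). The mean of 8 antennal markers in head ranged between 3.82 and 4.52 at 48 h, against 3.02 and 4.25 at 0 h, with 3 of the 8 below 4 on every 48 h head array and 5 of the 8 below it on every 0 h head array. The fourth member, Cyp308a1, measured 2.08, 2.20, 2.13 and 2.08 in head at 48 h, against 2.08 on every array at 0 h, while antenna arrays held it between 11.00 and 11.78 at all times. The part of antennal tissue in the head values was not tested.

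**Figure D4:**
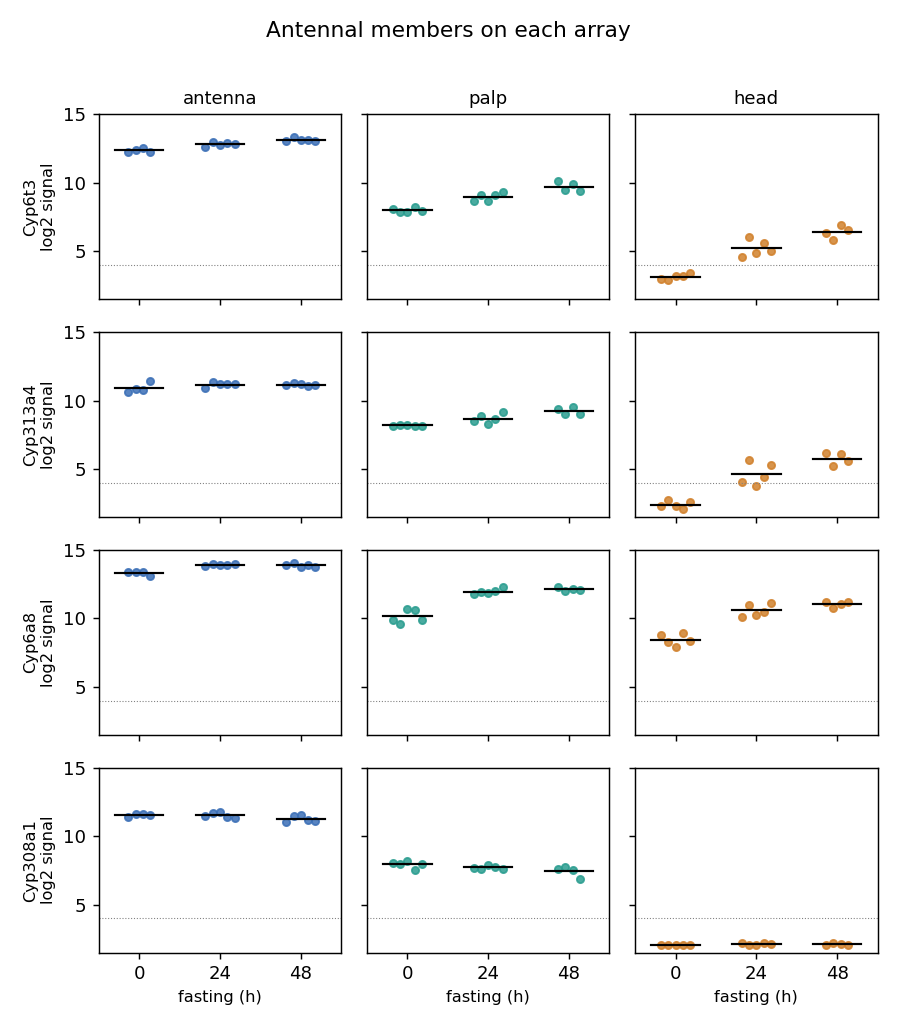
Log2 signal of the 4 members with the largest fitted difference of unfasted antenna over head (rows) on each array at 0, 24 and 48 h in antenna, palp and head (columns). Points are arrays, black bars group means and the dotted line a signal of 4. In head Cyp6t3, Cyp313a4 and Cyp6a8 climb with time and Cyp308a1 stays between 2.08 and 2.20.

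Cyp4d21 and Cyp305a1 fell in every part with no overlap between 48 h and 0 h arrays. Cyp4d21, known as sex-specific enzyme 1 and clock-controlled in the male head, measured 7.90, 8.85, 8.84 and 8.59 at 48 h in head, against 11.48, 11.08, 11.61, 11.45 and 10.64 at 0 h. It fell, at -1.87 ± 0.23 in antenna, -0.81 ± 0.11 in palp, -3.48 ± 1.00 in body and -2.71 ± 0.25 in head. The 24 h body arrays ranged widely, at 9.39, 7.92, 6.49, 8.95 and 3.47, and the body difference at 24 h against 0 h did not pass (-2.19 ± 0.94, adjusted p = 0.113). Cyp305a1, of the CYP2 clan, measured 8.78, 8.98, 9.39, 9.43 and 9.19 at 48 h in antenna, against 11.56, 11.25, 11.56 and 10.63 at 0 h. It fell, at -2.10 ± 0.20 in antenna, -1.33 ± 0.11 in palp, -0.85 ± 0.15 in body and -1.92 ± 0.18 in head, and its fall in body was smaller than in head by 1.07 ± 0.24.

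Among the remaining members that fell in all parts, Cyp28c1 fell most in body. It measured 2.89, 3.76, 3.67 and 2.93 at 48 h in body, against 5.74, 7.02, 6.69, 6.87 and 7.05 at 0 h, a fall of at least 6.37-fold, and 24 h arrays overlapped the 0 h arrays. Its falls elsewhere were -0.66 in antenna, -0.75 in palp and -0.97 in head. Cyp9b2 fell, at -1.59 ± 0.16 in head and -0.57, -0.60 and -0.85 in antenna, palp and body. Cyp311a1, which fell in antenna, palp and head, lost its call in palp with the pool as a block (-0.80). The mitochondrial Cyp12b2 fell, at -0.34, -0.28, -0.79 and -0.86 in antenna, palp, body and head, and with the pool as a block its calls in antenna (-0.37) and palp (-0.23) were lost.

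Cyp18a1 and Cyp4p2 rose in all parts with less certainty. Cyp18a1 measured 8.79, 8.55, 8.67 and 8.88 at 48 h in palp, against 7.30, 7.09, 7.23, 7.55 and 7.19 at 0 h, a rise of 1.45 ± 0.12 with no overlap. In body it rose by 1.42 ± 0.25, also with no overlap. In antenna (0.84 ± 0.26, adjusted p = 0.0422) and head (0.40 ± 0.14, adjusted p = 0.0495) the times overlapped and each call was lost without any 1 of 7 arrays (0.68 to 0.86 in antenna and 0.29 to 0.44 in head). With the pool as a block the antennal call was lost too (0.61). The rise in palp exceeded the rise in head by 1.06 ± 0.30, and the rise in body exceeded it by 1.03 ± 0.30. Cyp4p2 rose by 1.38 ± 0.17 in antenna, 1.41 ± 0.28 in palp, 1.15 ± 0.36 in body and 0.90 ± 0.28 in head, a call in head that needed each of replicates 1, 3 and 4 at both 0 h and 48 h (0.69 to 0.96 without 1 of them).

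In body Cyp4d1, Cyp6a18 and Cyp4d20 were among the members that fell most. Cyp4d1 measured 2.32, 2.46, 2.64 and 2.44 at 48 h in body, against 5.96, 5.86, 6.59, 8.49 and 7.16 at 0 h, a fall of at least 7.03-fold. Cyp6a18, at 2.08 on every head array, measured 5.08, 6.29, 6.71 and 3.48 at 48 h in body, against 8.69, 8.51, 8.52, 9.10 and 8.61 at 0 h, and fell, at -3.30 ± 0.51. The arrays of both times stood apart for these members. The change in body was below that in head for Cyp4d1 (-4.03 as fitted, and -2.55 with signals below 4 raised to 4), for Cyp6a18 (-3.30 and -3.17) and for Cyp4d20 (-2.42 ± 0.44), which fell, at -0.87, -3.85 and -1.43 in palp, body and head. Cyp4g1 measured 14.2 to 14.6 on all body arrays and differed by -0.04 ± 0.09 at 48 h against 0 h in body (adjusted p = 0.763).

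In all, 5 members changed more upward and 16 more downward in body than in head by the test of the difference (28.4% of 74, against 19.8% of all features). The test of the difference pools the spread of all 56 arrays. In antenna 6 were above and 6 below head (16.2%, against 4.39%), and in palp 3 above and 4 below (9.46%, against 3.71%). Over all features 10.6% were above and 9.21% below head in body, 2.67% and 1.72% in antenna, and 2.34% and 1.37% in palp. Cyp9b2 was among those whose change lay above that of head in antenna (1.02 ± 0.16), palp (0.99 ± 0.16) and body (0.75 ± 0.16). Cyp4c3 differed by -0.77 ± 0.32 in palp and 0.62 ± 0.23 in head, neither past the threshold, with a difference of -1.39 ± 0.30 between these changes (adjusted p = 0.00226).

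Cyp6a14, Cyp309a2 and Cyp312a1 rose in 1 part and fell in another, with less certainty in antenna for Cyp6a14 and Cyp309a2. Cyp312a1 measured 10.50, 10.07, 10.10 and 9.99 at 48 h in palp, against 8.68, 8.76, 8.69, 8.77 and 8.96 at 0 h. In body it measured 12.97, 12.89, 12.95 and 12.73 at 48 h, against 13.25, 13.34, 13.34, 13.30 and 13.43 at 0 h. It rose by 1.39 ± 0.13 in palp and fell by 0.45 in body (-0.45 ± 0.08), without overlap in either. In body 7 of 7 accessory gland markers fell as well, their mean ranging between 12.5 and 13.2 at 48 h, against 13.9 and 14.1 at 0 h, and their part in the Cyp312a1 value was not tested. Cyp309a2 rose in palp (0.57 ± 0.16) and fell in antenna (-1.52 ± 0.39), where the call was lost with the pool as a block (-1.10). Cyp6a14 fell in palp (-0.48) and head (-0.95) and rose in antenna (0.53), a call lost with the block (0.54) and without any 1 of 4 arrays (0.45 to 0.53). The antennal calls of Cyp309a2 and Cyp6a14 were also lost with signals below 4 raised to 4.

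The question of the 24 h samples was how early these changes appeared. At 24 h against 0 h, 10 members rose and 6 fell in antenna (26.2% of those tested, against 5.73% of all features), and 20 rose and 10 fell in palp (43.5%, against 23.5%). In body 13 rose and 12 fell (38.5%, against 21.2%), and in head 14 rose and 13 fell (41.5%, against 17.2%). Over all features 2.58% were higher and 3.15% lower in antenna, 11% and 12.5% in palp, 9.17% and 12% in body, and 7.52% and 9.7% in head. In antenna Cyp6a2 (1.26 ± 0.13) and Cyp6a14 (1.21 ± 0.15) rose most, and Cyp4d21 (-1.51 ± 0.23) and Cyp305a1 (-1.43 ± 0.20) fell most. In body Cyp4ac3 and Cyp6a2 (3.27 ± 0.36) rose most and Cyp4d1 (-3.31 ± 0.49) and Cyp4d14 (-2.80 ± 0.61) followed Cyp4ac2 among the falls.

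Between 24 h and 48 h, calls were fewer and mostly falls. At 48 h against 24 h no member passed in antenna by limma, against 0.1% of all features. There, 16 members had an unadjusted p under 0.05, and 4 passed in a single limma fit over all arrays. In palp 2 rose and 9 fell (15.9%, against 4.22%), in body 2 rose and 13 fell (23.1%, against 6.44%) and in head 7 fell (10.8%, against 1.37%). Over all features 0.0334% were higher and 0.0668% lower in antenna, 2.15% and 2.07% in palp, 1.33% and 5.11% in body, and 0.363% and 1% in head. With the pool as a block, 2 rose and 14 fell in head. With signals below 4 raised to 4, 7 fell in palp, 1 rose and 9 fell in body, and 1 fell in head. Leaving out 1 array gave 5 to 13 calls in palp, 10 to 19 in body and 1 to 5 in head.

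Cyp4e3, known for its role in pyrethroid tolerance in the Malpighian tubule, rose and then fell. Palp arrays measured 8.86, 8.95, 8.84, 9.38 and 9.49 at 0 h, 10.17, 9.78, 10.76, 10.75 and 10.82 at 24 h, then 9.25, 9.21, 9.32 and 9.25 at 48 h. Body arrays measured 7.19, 8.08, 8.13, 7.99 and 8.83 at 0 h, 9.57, 9.66, 10.83, 7.43 and 9.85 at 24 h, then 3.73, 4.41, 4.71 and 4.11 at 48 h. Head arrays measured 7.84, 7.11, 7.88, 8.85 and 9.08 at 0 h, 10.05, 10.18, 10.72, 10.75 and 10.26 at 24 h, then 7.52, 7.75, 7.17 and 6.94 at 48 h. In palp and head all 24 h arrays lay above all arrays of the other times, and in body all 48 h arrays lay below all others.

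At 24 h against 0 h Cyp4e3 rose by 1.35 ± 0.20 in palp (adjusted p = 0.000467) and 2.24 ± 0.32 in head (0.000503), and differed by 1.42 ± 0.50 in body (0.0614). At 48 h against 24 h it fell, at -1.20 ± 0.21 in palp (0.011), -5.23 ± 0.53 in body (0.000606) and -3.05 ± 0.34 in head (0.00104). In antenna neither difference passed (0.35 and -0.80). The mean of 9 gut markers in head had a median of 7.46 at 0 h, 10.1 at 24 h and 7.71 at 48 h, and its part in the head value was not tested. In palp that mean had a median of 5.31, 5.24 and 5.23. The 4 Malpighian tubule markers averaged 6.15 to 6.51 on all head arrays.

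**Figure D5:**
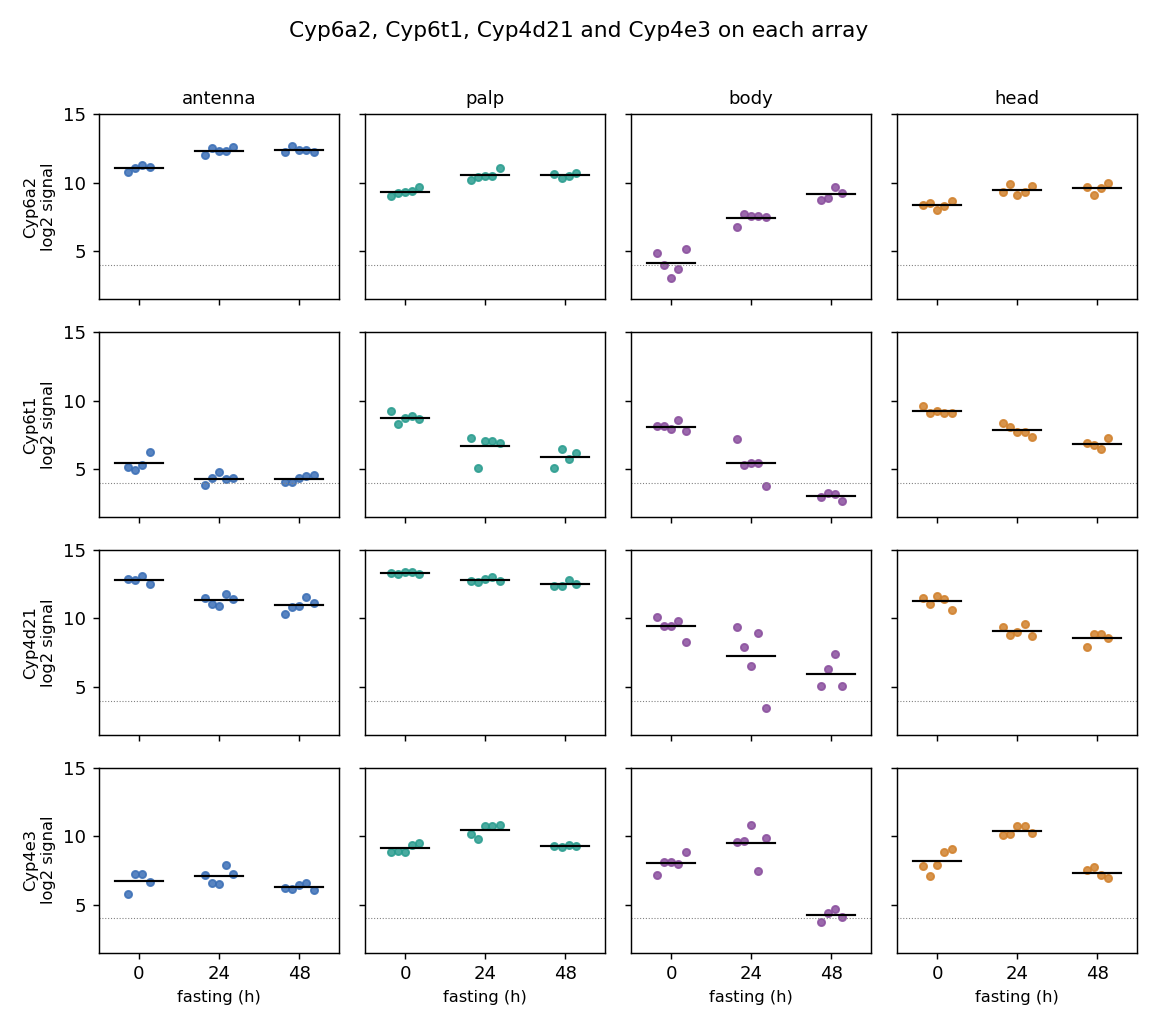
Log2 signal of Cyp6a2, Cyp6t1, Cyp4d21 and Cyp4e3 (rows) on each array at 0, 24 and 48 h of fasting in antenna, palp, body and head (columns). Points are arrays, black bars group means and the dotted line a signal of 4. Cyp6a2 climbs and Cyp6t1 and Cyp4d21 fall in every part, and Cyp4e3 peaks at 24 h in palp and head and drops to between 3.73 and 4.71 in body at 48 h.

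Members best known for insecticide resistance were not all among those that changed. Cyp6g1, whose overexpression gives resistance to DDT, averaged 14.77 ± 0.06 at 48 h in antenna and 14.60 ± 0.11 at 0 h (SD, n = 5 and 4), a difference of 0.17 ± 0.07 that did not pass, and rose in palp (0.32 ± 0.08). With the pool as a block it also rose in head (0.43). Cyp6w1 rose in palp (0.39 ± 0.07) and body (0.94 ± 0.28). Cyp28d1 and Cyp28d2, linked to nicotine tolerance, and Cyp9f2 passed in no part at 48 h against 0 h. At 24 h against 0 h, Cyp28d1 rose in body (0.36) and Cyp28d2 in head (0.50), and at 48 h against 24 h Cyp28d1 fell in body (-0.60). For Cyp28d1 the 48 h differences lay between -0.24 and -0.05. With the block, Cyp28d1 fell (-0.36) and Cyp28d2 rose (0.97) in body, and Cyp9f2 fell in body (-0.28) and head (-0.30). The probe set shared by Cyp12d1-d and Cyp12d1-p averaged 9.42 ± 0.51 at 48 h in body and 8.86 ± 0.71 at 0 h and passed in no part at 48 h against 0 h. It rose in palp at 24 h against 0 h (0.74 ± 0.20), and the 2 genes cannot be told apart on it. Cyp301a1, needed for cuticle formation, fell in head (-0.51 ± 0.15), a call lost without any 1 of 4 arrays (-0.49 to -0.47).

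The other members gave smaller or more scattered changes. The neighbours Cyp4p1, Cyp4p2 and Cyp4p3 on chromosome arm 2R all rose in antenna and head, Cyp4p1 by 0.69 and 0.80 and Cyp4p3 by 0.81 and 0.69. Cyp28a5 rose in antenna (0.44), palp (0.41) and body (0.46). Cyp6d4 and Cyp4d8 fell most in body (-2.16 and -2.04). Cyp309a1, the neighbour of Cyp309a2 on 2L, fell, at -2.42 ± 0.47 in antenna (at least 2.62-fold) and -0.65 in body. Its antennal call was lost with signals below the lower limit of measurement raised to that limit, so the 2.62-fold bound itself did not pass. Of the mitochondrial Cyp12 members, Cyp12a5 rose in palp (0.71) and body (0.82), and Cyp12e1 fell in body (-0.96) and head (-0.51). The members tested in at least 1 part that passed in none at 48 h against 0 h also included Cyp4ad1, Cyp4ae1, Cyp4c3, Cyp4d2, Cyp4d14, Cyp4e2, Cyp4g15, Cyp6a13, Cyp6d2, Cyp6g2, Cyp12c1, Cyp49a1, Cyp310a1 and Cyp313b1. Of these, at 24 h against 0 h Cyp4ae1 and Cyp4d14 fell in body (-0.52 and -2.80) and Cyp6d2 in palp (-0.62), and Cyp4c3 rose in head (0.80) and Cyp4d2 in antenna (0.51).

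The P450s of ecdysone synthesis that carry other symbols (the list held spo, spok, phm, dib, sad and shd) were barely measured, with 5 of 6 on the array, at most 1 tested in a part and 0 called by limma at 48 h against 0 h. Haem genes, redox partners, regulators and conjugating enzymes were read from the same fits, in which 8.61% of all features rose and 8.97% fell in antenna, 17.4% and 15.7% in palp, 29.8% and 21% in body, and 13.2% and 12.3% in head. Of 6 measured genes of haem synthesis, 0 rose and 3 fell in antenna, 1 and 3 in palp, 0 and 3 in body, and 0 and 3 in head at 48 h against 0 h, with medians of -0.30, -0.36, -0.43 and -0.25. No gene of haem breakdown was among those measured. Pbgs, porphobilinogen synthase, fell, at -0.81 ± 0.17 in antenna, -1.31 ± 0.25 in palp, -1.66 ± 0.17 in body and -0.92 ± 0.24 in head. FeCH, the ferrochelatase that inserts iron, fell in all 4 parts, between -0.70 and -0.49. Alas, which starts the pathway, rose in palp (0.50 ± 0.10).

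Of the genes listed as redox partners, which pass electrons to P450s, 4 were measured (Cyt-b5, Cyt-b5-r, Fdx1 and Fdx2). Cpr, dare and Fdxh were listed too but were not among them. Of the 4 measured, 2 fell in antenna, 0 in palp, 1 in body and 1 in head and none rose by limma. Among these Cyt-b5-r fell in antenna (-1.31 ± 0.33) and Fdx2 in antenna (-0.45) and head (-0.64). Whether Cyt-b5-r serves P450s as a partner was not tested. Of the regulators of xenobiotic response genes, 1 of 9 rose in antenna, 3 of 9 in palp, 2 of 7 in body and 2 of 9 in head, and 1 fell in body. Their shares in antenna and body were near those of all features (8.61% and 29.8% higher). The small Maf gene maf-S rose in palp (0.50 ± 0.11), body (0.32 ± 0.09) and head (0.42 ± 0.09), and its partner cnc rose in antenna (0.35 ± 0.09). In antenna maf-S did not pass (0.24), nor did cnc in palp (0.12) or head (0.21). Also, tgo rose in palp (0.44) and head (0.49), and usp in palp (0.24). The nuclear receptor gene Hr96 fell in body (-0.39 ± 0.12).

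UDP-glycosyltransferases, which act on products of P450s, were counted in the same way. At 48 h against 0 h, 2 rose and 5 fell of 16 tested in antenna, 0 and 12 of 17 in palp, 0 and 12 of 19 in body and 1 and 9 of 17 in head, with medians of -0.23, -0.68, -1.10 and -0.65, where 8.97%, 15.7%, 21% and 12.3% of all features fell. Ugt301D1 fell in all 4 parts, at -0.97, -1.09, -1.68 and -1.97 in antenna, palp, body and head. Markers of fat body and hemocytes fell at the same time. Of fat body markers 3 of 6 fell in antenna, 4 of 6 in palp, 5 of 5 in body and 4 of 6 in head, and of 6 hemocyte markers 5, 6, 6 and 6, beside those same shares of all features. The mean of 8 fat body markers in body ranged between 6.97 and 8.40 at 48 h, against 8.59 and 8.98 at 0 h. Their part in the P450 values was not tested.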

How the data were processed

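RNA was measured on 56 single-colour arrays of 4 body parts at 0, 24 and 48 h of fasting. Per the labels' protocols, total RNA was extracted with RNeasy columns, amplified with NuGEN Ovation V2 and labelled with biotin. The deposited values are log2 signals, and GCRMA is the tool named in the submitters' processing notes. No values were renormalized. Control probe sets (183) were left out, probe sets were named through the platform annotation, and the probe set of highest mean was kept for each gene. Features reaching a log2 signal of 4 on at least 4 arrays of a fit entered limma 3.58.1 (R 4.3.3; group means, eBayes, Benjamini-Hochberg over all features tested, threshold 0.05), with 1 fit for each body part, 1 for the 0 h arrays and 1 over all arrays for differences of change. The procedure was tested on simulated data. Members and gene lists were chosen with earlier results of these data known. Members were named with values for the largest differences in each comparison, and others to account for the family.

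The number of arrays limits the precision. Body 48 h replicate 4 carries another replicate number in its source name and was named by its title. Residuals of arrays sharing a pool correlated at a mean of 0.12 in antenna, 0.13 in palp, 0.11 in body and 0.20 in head, against -0.02, -0.03, -0.02 and -0.04 for other arrays, and the pools come from the labels. Pools are incomplete across times, so the main fit had no block. Alternatives were no filter, a pool block, loess or quantile scaling, every probe set, array weights, a single fit, 5 arrays set aside, and each array left out. Raising signals below 4 to 4 was added after seeing the data. Protein, promoter and motif sequences were not used here.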

Additional observations from a re-analysis of the deposited data

Results flagged for a closer look

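Of 96 groups of 4 or 5 arrays of named members, 4 held an array far from its group, where chance gives about 1 in 20 groups. Cyp6a21 measured 12.05 on palp 0 h replicate 5, where the nearest array had 11.88, and 11.12 on palp 48 h replicate 3, where the nearest had 10.81. Cyp4p1 measured 11.41 on head 0 h replicate 2, where the nearest had 11.71, and 12.24 on head 48 h replicate 2, where the nearest had 12.57.

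The change at 48 h against 0 h differed between body parts for several members by the limma test of the difference. The change in antenna minus the change in head was -3.11 for Cyp313a4, -2.50 for Cyp6t3, -2.05 for Cyp6a8 and -1.81 for Cyp4ac3. The change in palp minus the change in head was -2.28 for Cyp313a4, -1.55 for Cyp6t3, -1.39 for Cyp4c3 and 1.06 for Cyp18a1. Each of these tests pools the spread of all 56 arrays, so none measures the spread of the compared parts alone. Parts in which a member barely varies lower its pooled spread, as body does for Cyp6t3 and head for Cyp6a18. For Cyp4c3 the pooled spread includes antenna and body arrays, all below 4 at 0 h. The change in body minus the change in head was -4.03 for Cyp4d1, 3.77 for Cyp6a2, -3.30 for Cyp6a18 and -3.26 for Cyp6t3. Several of these rest on groups below 4 on every array, namely Cyp6t3 in body at all times and in head at 0 h, Cyp313a4 in head at 0 h, Cyp6a18 in head at all times and Cyp4d1 in body at 48 h. With signals below 4 raised to 4, an alternative chosen after seeing the data, the differences of antenna from head were -1.52 for Cyp313a4, no longer passing, and -1.64 for Cyp6t3. Those of palp from head were -0.69 for Cyp313a4 and -0.69 for Cyp6t3, neither passing. Those of body from head were -2.55 for Cyp4d1, -3.17 for Cyp6a18 and -2.41 for Cyp6t3, all passing by limma.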

How the results depend on the processing

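Of the 190 values of named members, none that passed in the main fit or in an alternative had opposite directions in the 2 fits. Changes of sign among values that passed in neither fit were not counted. The counts of members at 48 h against 0 h and at 24 h against 0 h stayed within 1.5 times the main count in every part under every alternative. Counts at 48 h against 24 h moved. In antenna 4 members passed in the single fit. In palp 7 passed with no filter, 7 with signals below 4 raised to 4, 25 with array weights and 6 in the single fit. In body 24 passed in the single fit. In head 2 passed with no filter, 1 with signals below 4 raised to 4, 16 with the replicate block and 20 with array weights. For change against that in head, array weights gave 23 members in antenna and 21 in palp. The cause was not tested.

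With 1 array left out, counts at 48 h against 0 h ranged 23 to 26 in antenna, 30 to 36 in palp, 29 to 42 in body and 28 to 38 in head. At 24 h against 0 h they ranged 11 to 17, 23 to 28, 20 to 28 and 22 to 28, and at 48 h against 24 h 0 to 0, 5 to 13, 10 to 19 and 1 to 5, in the same order. The counts of unfasted members against head ranged 51 to 56 in antenna, 50 to 53 in palp and 53 to 57 in body, and of changes against head 10 to 14, 4 to 8 and 20 to 27. In palp at 48 h against 24 h, 7 passed without 24 h replicate 1, 24 h replicate 3 or 48 h replicate 1 and 5 without 48 h replicate 4. In head 1 passed without 24 h replicate 1, 2 without 24 h replicate 3 or 48 h replicate 3, 3 without 48 h replicate 2 or 4, and 4 without 24 h replicate 2 or 48 h replicate 1. For palp against head changes, 4 passed without head 48 h replicate 3 or palp 48 h replicate 4. With the pool as a replicate block, 22, 36, 39 and 44 members passed at 48 h against 0 h in antenna, palp, body and head. Of 190 values of named members, the block kept the call of 173, ended 8 and gave 9 new ones. The values it changed at 48 h against 0 h stand beside those members, and the rise of Cyp6t3 in palp at 48 h against 24 h lost its call (0.74). Raising signals below 4 to 4, chosen after seeing the data, kept 170 of the 190 named values on their side of the threshold and ended 20 calls. Signals under 4 on the log2 scale limit what can be said of 8 members in every part.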
